A study of Mus musculus with 8 samples.

Results

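The genes described are 10 genes of collagen maturation, namely the lysyl oxidases Lox, Loxl1, Loxl2 and Loxl3, the lysyl hydroxylases Plod1, Plod2 and Plod3, the prolyl 4-hydroxylase catalytic subunits P4ha1 and P4ha2, and the collagen chaperone Serpinh1. They were chosen by name, and every probe whose annotated symbol is one of them was taken. This gave 10 of the 25697 probes on the array, 1 for each gene, of which 9 were bright enough to be tested. RNA from perigonadal white adipose tissue of male mice was hybridised to 8 Illumina bead arrays, 3 labelled FKO and 5 labelled Con. FKO mice carried Adiponectin-Cre and a floxed Ogt allele on their single X chromosome (OGT flox/Y), so that the O-GlcNAc transferase gene should be removed in adipocytes while every other cell of the depot keeps it. Con mice were littermates with the same floxed allele and no Cre. All 8 mice were 15 weeks old by the labels, on a B6 background, and had eaten a high-fat diet for 3 days. Intensities are the deposited quantile-normalised values, in arbitrary units.

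The labels were first set against the targeted gene. The brightest Ogt probe had intensities of 296, 177 and 259.9 in labelled FKO arrays 1 to 3, against 188, 264, 199, 232 and 267 in labelled Con arrays 1 to 5. The lowest 3 arrays were FKO 2, Con 1 and Con 3 on each of the 3 Ogt probes, so Ogt did not separate the arrays by their labels (log2 fold change 0.08, SE 0.23, exact permutation test, two-sided p = 0.768, n = 3 and 5). The other Ogt probes were dim, at 116 to 169 and 112 to 150, and 1547 of all 13854 tested probes had the same lowest 3 arrays. The sources used here do not say whether an Ogt probe lies in the deleted part of the gene, and while a figure legend of the study gives the group sizes as the labels do, its methods give them the other way round. For this reason each array keeps its label as its name, and the directions below are between labels only.

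Fibrillar collagen is made in the endoplasmic reticulum, where prolyl 4-hydroxylases modify prolines so that the helix is stable at body temperature and lysyl hydroxylases modify lysines that later take part in cross-links. Hsp47, the product of Serpinh1, binds the folded helix until it leaves the endoplasmic reticulum. Outside the cell, lysyl oxidases convert lysines and hydroxylysines of collagen, and lysines of elastin, into aldehydes that join neighbouring molecules. In adipose tissue this matrix surrounds adipocytes and vessels, and both kinds of hydroxylase need oxygen and iron. Several of these genes are known targets of the hypoxia-inducible factors (HIF).

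The sequences before the start sites of 3 of the genes are shown because Plod3 and P4ha1 shared an order of the arrays, described below, that P4ha2 did not have. Each is the 250 bases before the annotated start of transcription, plus strand, from RefSeq on GRCm38.p6, and was available for 5 of the 10 genes (Plod1, Plod3, P4ha1, P4ha2 and Serpinh1). Capitals mark ACGTG or GCGTG, the letters at the core of HIF binding sequences, on either strand, where their complements read CACGT and CACGC. The windows lie at chr5:136986769-136987018 for Plod3, chr10:59323046-59323295 for P4ha1 and chr11:54100674-54100923 for P4ha2.
Plod3: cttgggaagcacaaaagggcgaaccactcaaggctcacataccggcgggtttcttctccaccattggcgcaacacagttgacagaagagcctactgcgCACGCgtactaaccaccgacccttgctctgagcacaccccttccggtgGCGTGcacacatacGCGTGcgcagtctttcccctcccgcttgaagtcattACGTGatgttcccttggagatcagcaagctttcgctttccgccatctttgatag
P4ha1: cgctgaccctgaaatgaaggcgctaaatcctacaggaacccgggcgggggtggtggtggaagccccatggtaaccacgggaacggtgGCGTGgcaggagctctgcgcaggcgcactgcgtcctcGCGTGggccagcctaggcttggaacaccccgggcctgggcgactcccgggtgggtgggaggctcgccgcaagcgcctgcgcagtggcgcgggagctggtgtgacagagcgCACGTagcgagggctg
P4ha2: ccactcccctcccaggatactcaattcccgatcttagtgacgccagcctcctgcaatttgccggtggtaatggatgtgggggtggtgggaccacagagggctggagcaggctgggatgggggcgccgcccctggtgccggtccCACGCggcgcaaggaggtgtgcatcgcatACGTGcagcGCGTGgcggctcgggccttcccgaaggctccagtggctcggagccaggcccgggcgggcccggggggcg

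The Plod3 window held 4 such matches, at 54 bases before the start for ACGTG and at 152, 104 and 90 bases for GCGTG. P4ha1 and P4ha2 held 3 each, with ACGTG at 16 bases before the start in P4ha1 and at 78 bases in P4ha2. Plod1 and Serpinh1 held 1 each. Of 32851 windows of the same length in the RefSeq table, 16.6% held ACGTG, 28.2% held GCGTG and 38.6% held at least 1 of them. No match overlapped another in these 5 windows. A match is a run of letters and was not tested as a binding site, and no link between matches and the order of the arrays was tested.

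No difference between the labels passed a test in any member. Of the 9 tested genes, 1 had a positive log2 fold change (Lox) and 8 had a negative one, where 43.4% of all 13854 tested probes were positive. None passed limma with Benjamini-Hochberg adjustment over all tested probes, as did 0% of those probes, and each had an adjusted p of 1.00. None had an unadjusted limma p under 0.05, against 4.27% of tested probes, and the smallest among the members was 0.192 in limma. None passed the methods' t-test, against 0.00722% of tested probes, and none had labelled groups that did not overlap, against 2.63%. The median log2 fold change was −0.10 for the 9 genes and −0.02 for all tested probes. The plot of fold changes with their intervals shows how wide a difference each probe still allows on the corrected values. These carry an added offset that narrows differences in dim probes.

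**Figure D1:**
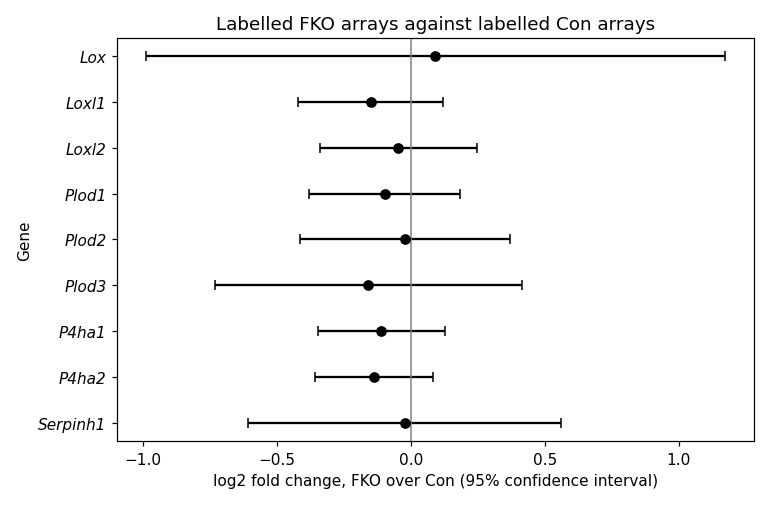
Log2 fold change (labelled FKO minus labelled Con, limma on normexp and quantile-normalised values) of the 9 tested genes, with bars for the 95% confidence interval, 3 arrays labelled FKO and 5 labelled Con. Every interval crosses 0, and that of Lox is the widest, running between −0.99 and 1.17.

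Among the lysyl oxidases, Lox, the founding member of the family, varied most between arrays. Its intensity was 667, 1594 and 747 in labelled FKO arrays 1 to 3, against 1661, 569, 1393, 683 and 566 in labelled Con arrays 1 to 5. The arrays fell into 3 bright ones (FKO 2, Con 1 and Con 3) and 5 dim ones, each kind holding both labels, and the highest was 2.94 times the lowest. The means were 1003 ± 513 in labelled FKO arrays and 974.5 ± 515 in labelled Con arrays (SD, n = 3 and 5). The log2 fold change was 0.09 (SE 0.47) with a 95% interval of −0.99 to 1.17, so anything between 0.504 and 2.25 times the Con level was within the error (exact permutation test, two-sided p = 0.804).

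Loxl1, which acts on elastin and is needed for elastic fibres in mice, varied less, with the highest array 1.41 times the lowest. It measured 968, 1169 and 882 in labelled FKO arrays 1 to 3, against 1239.8, 1057, 1193, 968 and 1084 in labelled Con arrays 1 to 5. Con 1, Con 3 and FKO 2 were again the brightest, the dimmest was FKO 3, and the groups overlapped. The log2 fold change was −0.15 (SE 0.12), with an interval of 0.747 to 1.09 times the Con level (exact permutation test, two-sided p = 0.268).

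Loxl2, an oxidase known for its action on the type IV collagen of basement membranes, lay close to the background of the array. It measured 129.8, 144 and 123 in labelled FKO arrays 1 to 3, against 157, 128, 128, 123 and 143 in labelled Con arrays 1 to 5. Con 1 and FKO 2 were the brightest and the groups overlapped almost wholly. The log2 fold change was −0.05 (SE 0.13, exact permutation test, two-sided p = 0.75). Loxl3, which also oxidises lysines of collagen and elastin, was between 98.8 and 101 in labelled FKO arrays and between 95.2 and 106.4 in labelled Con arrays. The commonest intensity on the arrays was 98.5, where probes without signal pile up, and values above 106.2 were treated as above that background. Loxl3 passed this limit on 1 array (Con 2) and was not tested.

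**Figure D2:**
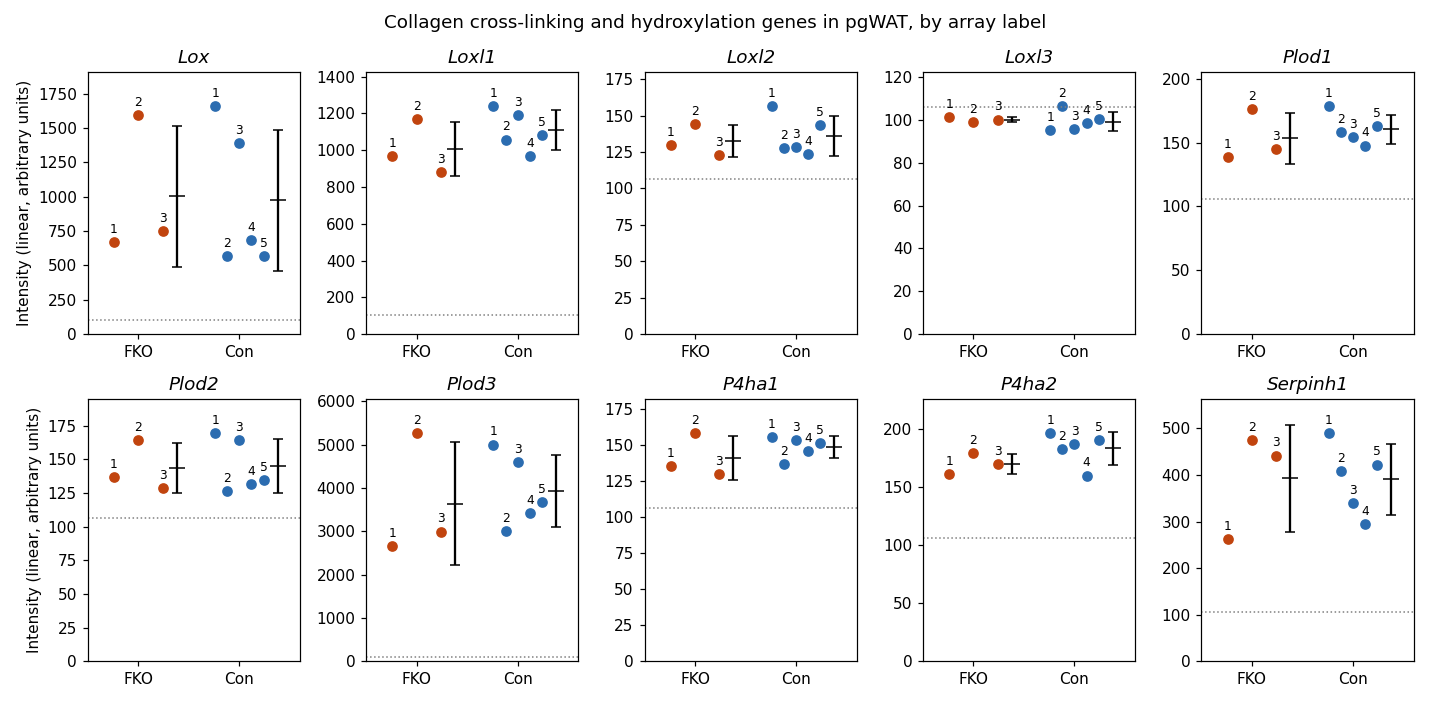
Deposited intensity of each of the 10 genes on every array (linear axis, arbitrary units), arrays labelled FKO left of arrays labelled Con. A bar gives the group mean with its SD, and a dotted line the background limit of 106.2. Relative to its lowest array Lox spans the widest range, Loxl3 lies at background, and in each gene the labelled groups overlap.

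Among the lysyl hydroxylases, Plod3, whose product also attaches sugars to the hydroxylysines it makes, had a highest array 1.98 times the lowest. Plod3 measured 2659, 5259 and 2993 in labelled FKO arrays 1 to 3, against 4998, 3011, 4592, 3411 and 3682 in labelled Con arrays 1 to 5. FKO 2 was the highest and FKO 1 the lowest of all 8 arrays, so the labelled FKO arrays spanned the whole range of the labelled Con arrays. The means were 3637 ± 1415 in labelled FKO arrays and 3939 ± 830 in labelled Con arrays (SD, n = 3 and 5). The log2 fold change was −0.16 (SE 0.25, exact permutation test, two-sided p = 0.589).

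Plod1, which hydroxylates lysines in the helical part of collagen, measured 138.5, 176 and 145 in labelled FKO arrays 1 to 3, against 179, 158, 155, 148 and 163 in labelled Con arrays 1 to 5. FKO 1 and FKO 3 were its dimmest arrays and FKO 2 its second brightest, inside the range of the labelled Con arrays (log2 fold change −0.10, SE 0.12). Plod2, the hydroxylase of the telopeptide lysines whose cross-links mark fibrotic tissue, measured 137, 164 and 129 in labelled FKO arrays 1 to 3, against 169, 126, 164, 131 and 135 in labelled Con arrays 1 to 5. Its bright arrays were Con 1, FKO 2 and Con 3, with every other array lower and both labels on each side. Its log2 fold change was −0.02 (SE 0.17), and the exact two-sided permutation p was 0.857 for Plod2 and 0.464 for Plod1.

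The catalytic subunits of prolyl 4-hydroxylase were dim. The highest array was 1.22 times the lowest in P4ha1 and 1.23 times in P4ha2. These intensities include the background near 98.5, which narrows such ratios in dim probes, so they do not show that the transcripts were steady. P4ha1, the main subunit in most cells, measured 135, 158 and 129.7 in labelled FKO arrays 1 to 3, against 155, 137, 153, 146 and 152 in labelled Con arrays 1 to 5. FKO 2 was its brightest array and the other labelled FKO arrays its dimmest (log2 fold change −0.11, SE 0.10, exact permutation test, two-sided p = 0.357). P4ha2, an alternative subunit that forms its own enzyme with protein disulfide isomerase, measured 161.5, 179 and 169.9 in labelled FKO arrays 1 to 3, against 197, 183, 187, 160.1 and 191 in labelled Con arrays 1 to 5. For P4ha2, 4 of the 5 labelled Con arrays lay above every labelled FKO array and Con 4 lay below them. Its means were 170.2 ± 8.88 in labelled FKO arrays and 183.5 ± 14.0 in labelled Con arrays (SD, n = 3 and 5). Its log2 fold change was −0.14 (SE 0.10), with an interval of 0.780 to 1.06 times the Con level. That interval is for values with an offset added after background correction, which narrows differences in a dim probe. With a smaller offset of 16 the log2 fold change of P4ha2 was −0.18 (SE 0.13). The interval therefore does not bound the change in the transcript itself. P4ha2 was the member with the smallest unadjusted limma p of 0.192, and its exact two-sided permutation p was 0.214.

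Serpinh1 measured 262, 474 and 442 in labelled FKO arrays 1 to 3, against 489.5, 409, 339, 294 and 422 in labelled Con arrays 1 to 5. Con 1 was its highest array and FKO 1 its lowest, and unlike for Lox the array Con 3 was among the dim ones. The means were 393 ± 114 in labelled FKO arrays and 391 ± 76.1 in labelled Con arrays (SD, n = 3 and 5), with a log2 fold change of −0.02 (SE 0.25, exact permutation test, two-sided p = 0.946). The 6 genes Loxl2, Loxl3, Plod1, Plod2, P4ha1 and P4ha2, stayed under 212.3, which is 2 times the background limit, on all 8 arrays. Near the background the fold change of a probe depends on the offset added after background correction. For P4ha1 the log2 fold change was −0.11 with the offset of 50 used throughout, −0.17 with an offset of 16 and −0.0780 with no correction, and none of the 5 of them that were tested was called by limma under these settings.

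What the members shared was an order of the arrays that cut across the labels. In 5 of the 9 tested genes (Lox, Loxl1, Plod2, Plod3 and P4ha1) the highest 3 arrays were FKO 2, Con 1 and Con 3, the arrays on which Ogt was lowest, against 14.3% of all tested probes. These 3 arrays were known from earlier results of these data, so the count is a description and no test was made of it. Con 1 and FKO 2 were above the gene's own mean of log2 values in 9 of 9 tested genes, with median deviations of 0.22 for FKO 2 and 0.31 for Con 1. FKO 1 was above it in 0 of 9 genes, FKO 3 and Con 4 in 1 each, and Con 2 in 3. Con 3 and Con 5 were above it in 6 genes each, so the order was not the same in every member. Over all tested probes the median deviation of an array stayed between −0.03 and 0.01, which quantile normalisation largely sets in advance.

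**Figure D3:**
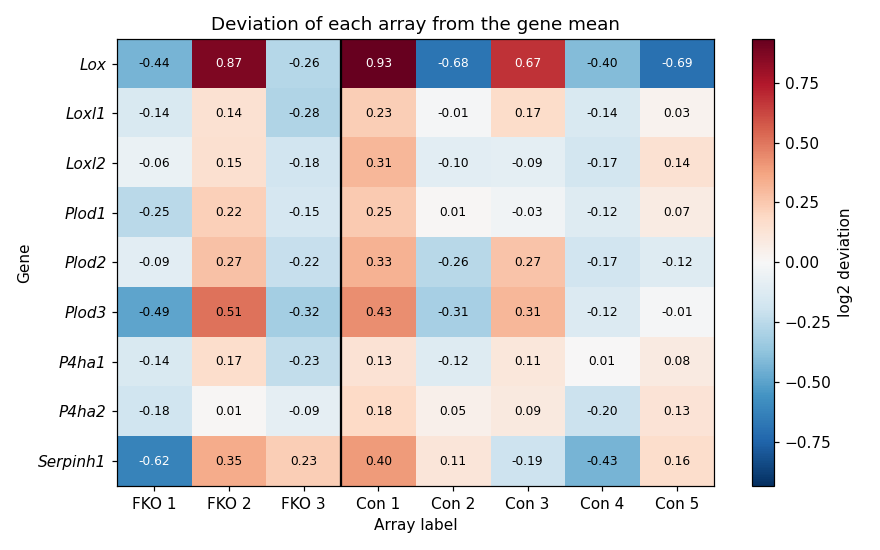
Log2 deviation of each tested gene from its own mean over the 8 arrays (normexp and quantile-normalised values), arrays labelled FKO left of arrays labelled Con. FKO 2 and Con 1 lie above 0 in all 9 genes and FKO 1 lies below 0 in all 9, while Lox spans the widest range.

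The size of this spread differed between genes. In Lox the log2 deviations were −0.44, 0.87 and −0.26 in labelled FKO arrays 1 to 3, and 0.93, −0.68, 0.67, −0.40 and −0.69 in labelled Con arrays 1 to 5. In Plod3 they were −0.49, 0.51 and −0.32 in labelled FKO arrays 1 to 3, and 0.43, −0.31, 0.31, −0.12 and −0.01 in labelled Con arrays 1 to 5. The 3 bright arrays thus stood clear of the rest in both genes, with the wider gap in Lox, and the dim arrays had a different order in each.

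The genes whose pattern was most like that of a member were found by the root-mean-square difference of log2 deviations over the 8 arrays. The search was among 9628 tested genes, with the members left out and compared separately. For Lox the nearest were Dusp15 (0.134), Mreg (0.173) and Olig1 (0.220), and the nearest member was Plod3 at 0.387. Dusp15, a dual-specificity phosphatase gene, measured 109.8, 219.8 and 114 in labelled FKO arrays 1 to 3, against 227, 113, 203, 112 and 112 in labelled Con arrays 1 to 5, so that its dim arrays were close to background. On the same dim arrays Mreg measured 113 to 122 and Olig1 100 to 111, also close to background, whereas Lox measured 566 to 747. For Plod3 the nearest were Tnfrsf22 (0.0695), Lrp11 (0.0865) and Casp1 (0.0909), with Plod2 the nearest member at 0.177. For Serpinh1 they were Stambpl1 (0.111), Rrp12 (0.135) and Tnfrsf12a (0.148), with Plod1 the nearest member at 0.242. None of these nearest genes outside the members was a gene of the lists below.

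The wider pathway was described by lists of genes. Of 12 tested partners in collagen hydroxylation and folding, 5 had positive and 7 negative fold changes, and none was called by limma. P4hb, protein disulfide isomerase, is the other subunit of prolyl 4-hydroxylase and measured 3121, 3214 and 3733 in labelled FKO arrays 1 to 3, against 3096, 3163, 2864, 3004 and 3035 in labelled Con arrays 1 to 5. Its groups overlapped only through FKO 1 and Con 2 (log2 fold change 0.14, SE 0.08, limma adjusted p = 1.00). P3h3, a prolyl 3-hydroxylase family member, measured 126, 127 and 125 in labelled FKO arrays 1 to 3, against 129, 129, 137, 136 and 137 in labelled Con arrays 1 to 5. Its labelled groups did not overlap, close to background, and its log2 fold change was −0.11 (SE 0.06, limma adjusted p = 1.00). P4hb and P3h3 each had an exact two-sided permutation p of 0.0357 before any adjustment, and they are the partners of smallest unadjusted limma p.

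Substrates and later steps showed small differences of either sign. Of 14 tested collagen chains, 2 had positive and 12 negative fold changes (median −0.10), with Col1a2 at −0.25 (SE 0.15) and Col5a2 at −0.08 (SE 0.07). All 10 tested genes of procollagen processing and fibril assembly were negative (median −0.13), with tenascin Tnxb at −0.26 (SE 0.13) and Sparc, a collagen-binding matrix protein, at −0.12 (SE 0.08). Of 6 tested elastic fibre genes 4 were positive and 2 negative (median 0.03), and of 11 collagen breakdown genes 2 were positive and 9 negative (median −0.09). For HIF targets these counts were 2 positive and 9 negative of 11 (median −0.05), and for TGF-beta targets 1 positive and 8 negative of 9 (median −0.13). None of these genes was called by limma, which called 0% of all tested probes, and the median of all tested probes was −0.02.

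In some genes of each of these lists the highest 3 arrays were the 3 bright ones of Lox. This is called the Lox order here, whatever the order among the 3, and 14.3% of all tested probes had it. FKO 2, Con 1 and Con 3 were the highest 3 arrays for 3 of 14 collagen chains (Col1a1, Col5a3 and Col18a1) and 3 of 10 processing genes (Bmp1, Dpt and Pcolce). They were also highest for 3 of 11 HIF targets (Ldha, Slc2a1 and Adm). The other counts were 2 of 12 for partners (Pdia3 and P3h2), 1 of 6 for elastic fibre, 1 of 11 for breakdown and 1 of 9 for TGF-beta genes. All of these lists are short, and no count was tested against the share of all probes. Col18a1, whose chain lies in basement membranes and gives rise to endostatin, measured 2084, 5062 and 2476 in labelled FKO arrays 1 to 3, against 5247, 2805, 5367, 3623 and 2450.4 in labelled Con arrays 1 to 5. Its 3 bright arrays were those of Lox, with both labels among them. Eln, the elastin substrate of the lysyl oxidases, measured 187, 214 and 181 in labelled FKO arrays 1 to 3, against 216, 171, 202, 176 and 182 in labelled Con arrays 1 to 5. Slc2a1, a glucose transporter and HIF target, measured 405, 690.3 and 410.2 in labelled FKO arrays 1 to 3, against 679, 469, 722, 511 and 375 in labelled Con arrays 1 to 5. FKO 2, Con 1 and Con 3 were the lowest 3 arrays for 3 of 12 partners and 3 of 9 adipocyte markers. The same held for 1547 of all 13854 tested probes. The Lox order was thus not that of every gene of the tissue.

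Marker genes of the cell types in the depot moved with the arrays to differing degrees. In tissue RNA, fewer cells of a type and less RNA per cell cannot be told apart. Endothelial markers had the Lox order in 5 of 7 tested genes (Tie1, Esam, Tek, Cdh5 and Pecam1), and Pecam1 measured 474, 837 and 354 in labelled FKO arrays 1 to 3, against 721, 423, 636, 448 and 455 in labelled Con arrays 1 to 5. The summed endothelial intensity was 2195 to 4319 in labelled FKO arrays and 2619.8 to 3898 in labelled Con arrays, with FKO 2, Con 1 and Con 3 on top. Markers of progenitors and fibroblasts, the cells known as main makers of collagen, had that order in 2 of 8 tested genes (Cd34 and Pdgfrb), and their sums ran between 2674 and 3359 in labelled FKO arrays and between 2905 and 3737 in labelled Con arrays. Adipocyte markers had it in 0 of 9 genes, with sums of 37314 to 44774 in labelled FKO arrays and 43361 to 49944 in labelled Con arrays. Lep makes up the largest share of these sums. It had the same value, 15142, on FKO 2, Con 1, Con 2, Con 3 and Con 5, so it could not rank those arrays. The order was found in 1 of 7 smooth muscle and pericyte markers, 0 of 7 mesothelial markers, 0 of 5 macrophage markers and 0 of 3 red cell markers. All 9 adipocyte markers with a probe were bright enough to be tested. The part of these cell types in the values of the members was not tested.

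**Figure D4:**
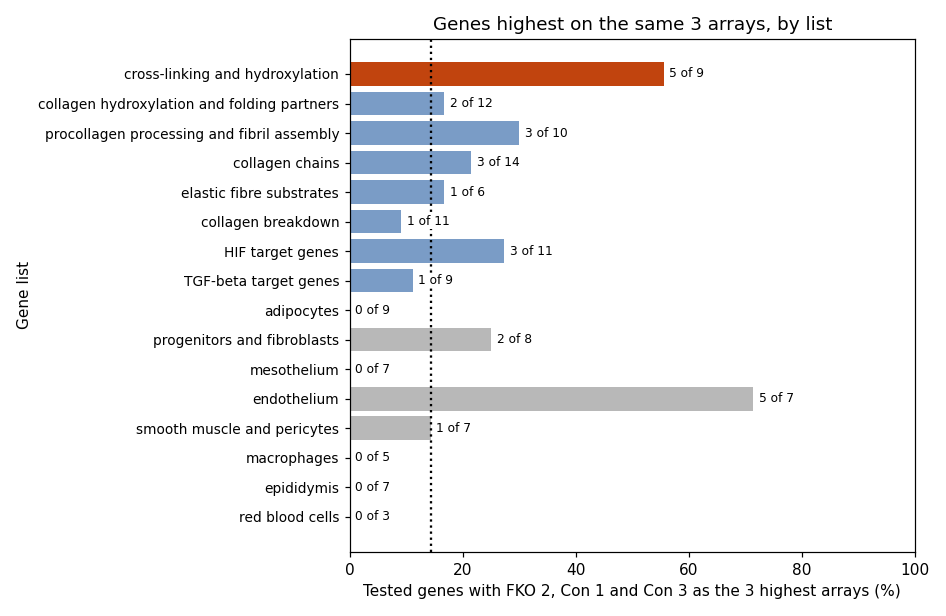
Percentage of tested genes in each list for which the arrays labelled FKO 2, Con 1 and Con 3 were the highest 3 of 8, with the count beside each bar and a line at the 14.3% of all tested probes. The endothelial markers (5 of 7) and the collagen maturation genes (5 of 9) reach furthest past the line, and the adipocyte markers are at 0 of 9.

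Markers of epididymis, the tissue that adjoins this depot in males, separated other arrays. Their summed intensity was 9142, 934 and 16146 in labelled FKO arrays 1 to 3, against 967, 1937, 1049, 1105 and 1013 in labelled Con arrays 1 to 5. FKO 1 and FKO 3 were far above every other array and Con 2 was next. These were also the lowest 3 arrays in the summed intensity of the 10 members, of which Plod3 makes up the largest share, and which was 5359, 9417 and 5861 in labelled FKO arrays 1 to 3, against 9339, 5884, 8401, 6162 and 6639 in labelled Con arrays 1 to 5. Gene by gene the match was looser, since Con 4, with a low epididymal sum, had a median member deviation of −0.17 on the log2 scale against −0.10 in Con 2, and since FKO 3 and Con 2 were above the mean of Serpinh1. The part of epididymal RNA in the members' values was not tested. With FKO 1, FKO 3 and Con 2 left out, the label comparison rests on 1 array labelled FKO (FKO 2), taken to vary like those labelled Con. FKO 2 was above the gene's own mean in all 9 tested members, so the choice of arrays itself favours higher values. The log2 fold change was then 0.74 for Lox, 0.36 for Plod3, 0.36 for Serpinh1 and −0.04 for P4ha2.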

How the data were processed

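RNA of 8 mice, 3 labelled FKO and 5 labelled Con, was hybridised to Illumina bead arrays (MouseRef-8 v2.0). The deposited table holds linear intensities that the authors had quantile-normalised. The software, the background treatment and the summary of beads are not given in the sources used here. Values piled up near 98.5, as where no background is subtracted. A second deposited table of values before normalisation has 16 per-sample columns that name no sample and was not used.

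Probes were named through the platform annotation (23978 of 25697 probes with 1 symbol, 1719 with none). A probe was tested if its intensity was above 106.2 on at least 3 arrays (13854 probes). The values were corrected by normexp with an offset of 50, turned to log2, quantile-normalised and fitted by lmFit and eBayes in limma 3.58.1 (R 4.3.3), labelled FKO minus labelled Con, with Benjamini-Hochberg adjustment at 0.05 over all tested probes. The methods' t-test used an unadjusted p under 0.01 and a fold above 1.5. It was an equal-variance test run on these same corrected log2 values, not on the deposited intensities. Single genes were given an exact two-sided permutation test over all 56 splits, whose smallest possible p is 0.0179. A gene with several probes was read from the brightest. The steps were tested on simulated data.

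All 10 members were named. From each list of other genes the 2 with the smallest unadjusted limma p were taken, from which those described were drawn, and genes given only for their array order were chosen after their values were seen. Likeness was described for members whose highest array exceeded the lowest by more than 1.5 times after normalisation (Lox, Plod3 and Serpinh1). The members and lists were chosen with earlier results of these data known. Alternatives changed the background correction, offset, normalisation, level filter, array weights, eBayes setting, replicate block and the arrays included. No array was read more than once, no file names a slide or scan. Precision is limited by how few arrays there are. The labels do not say that replicates are more than separate samples of a group, so p-values measure the spread between these samples.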

Additional observations from a re-analysis of the deposited data

How the results depend on the processing

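Under 17 alternatives, 9 of them other than leaving out a single array, none of the 9 tested members was called. Of 153 alternative fold changes of members, 129 kept their direction and 24 reversed, and the smallest adjusted p of a member was 0.459 in limma. With array weights Lox was −0.34, and the others moved further down, among them Plod3 to −0.42, Serpinh1 to −0.32, Plod1 to −0.21 and Plod2 to −0.14. Lox was −0.25 with the replicate block. An unadjusted limma p under 0.05 was reached by P4ha2 with array weights (8.7% of tested probes) and without Con 4 (3.19%), and by Loxl1 and P4ha1 without FKO 2 (9.95%). With an offset of 16, P4ha1 was −0.17 and Loxl2 −0.07. Leaving out the arrays labelled FKO 1, FKO 3 and Con 2 keeps FKO 2 as the only array labelled FKO. Loxl1 was then 0.0692, Loxl2 0.10, Plod1 0.18, Plod2 0.20, Plod3 0.36, P4ha1 0.0850 and Serpinh1 0.36. The cause was not tested. With 1 array left out at a time, the log2 fold change ran from −0.32 to 0.34 for Lox, −0.27 to −0.06 for Loxl1, −0.14 to 0.0258 for Loxl2, −0.24 to −0.00313 for Plod1, −0.16 to 0.0793 for Plod2, −0.46 to 0.0361 for Plod3, −0.23 to −0.03 for P4ha1, −0.20 to −0.09 for P4ha2 and −0.20 to 0.28 for Serpinh1. The number of probes called ran from 0 to 193, of which 191 were higher and 2 lower without FKO 2, and 0 higher and 15 lower without Con 5. Members called stayed at 0, and members whose labelled groups did not overlap ran from 0 to 3. The 3 (Plod1, Plod3 and P4ha1, lower in the labelled FKO arrays left) appeared without FKO 2, as did 15.5% of tested probes, and P4ha2 alone without Con 4, as did 3.67%. The replicate block called 0 probes. Same-numbered arrays deviated against each other (correlations −0.56, −0.70 and −0.41), so the numbers were not taken to pair them. A slide block was not run because no file names a slide. The 6 members under 212.3 on all arrays limit what could be seen of small changes.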
